A study of Mus musculus with 2 samples.

Results

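Antiviral restriction factors are host proteins that block a step of viral replication directly. The genes described here were selected by name, as tetherin, the Mx proteins, viperin, Samhd1, schlafens, Apobec3 and Adar. All 10 of them (Bst2, Mx1, Mx2, Rsad2, Samhd1, Slfn2, Slfn5, Slfn8, Apobec3 and Adar) were found among the 26082 genes measured. The RNA came from primary mouse fibro-adipogenic progenitors (FAPs), the muscle-resident progenitors that can turn into adipocytes. The labels give their genotype as WT, and the study's methods describe sorting from the hind limb muscles of C57BL/6 mice bought at 6 to 8 weeks old. Both groups were under adipogenic differentiation, with insulin (10 μg/ml), IBMX (0.5 mM) and dexamethasone (0.25 μM) added to a DMEM medium that held FBS at 20%. One group, TGFBR3 OE, was transfected with plasmids overexpressing TGFBR3, and the other, control, with the vector, with 1 library in each. The promoter on the plasmid, the number of animals pooled and the time of harvest were not given in the sources used here.

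Most restriction factors are kept at a low level in resting cells and are induced by interferons. Type I interferon binds its receptor on the cell surface, the kinases Jak1 and Tyk2 become active, and a complex that contains IRF9 binds a DNA element called the interferon-stimulated response element (ISRE). Interferon γ acts mainly through a different element, the gamma-activated site (GAS). The products act at separate steps. Tetherin (Bst2) holds budding virions at the cell surface, the Mx GTPases trap viral nucleoproteins, viperin (Rsad2) makes a nucleotide that stops viral RNA polymerases, and Samhd1 breaks down the dNTPs that reverse transcription needs. Apobec3 deaminates cytidines in retroviral DNA, Adar edits adenosines in double-stranded RNA, and the schlafens act on RNA and translation.

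A single library stands for each group, so the differences could not be set against a spread between replicates and carry no p-values. Total counts were 62321027 (labelled TGFBR3 OE) and 83779203 (labelled control). Where a pair of values is given, the library labelled TGFBR3 OE comes first. Levels are given as FPKM, the count scaled to exon length and to the library total. Changes are log2 ratios of (FPKM + 1), TGFBR3 OE over control, and a ratio of 1 or more is called 2-fold higher. The 95% confidence intervals (CI) are exact Clopper-Pearson intervals that cover counting error only. Among the 10626 genes reaching 1 FPKM in each library the median log2 ratio was 0.13. Centred values have this shift removed. Tgfbr3 itself had an FPKM of 36.9 in the library labelled TGFBR3 OE and 35.1 in the library labelled control. This is a log2 ratio of 0.07 (95% CI 0.04 to 0.10), or −0.06 when centred, so the overexpressed gene does not show the labelled difference. Whether RNA from the plasmid could be counted as mouse Tgfbr3 is not given in the sources used here. For this reason the text speaks of labelled libraries, and all directions below are directions between labels. The FAP markers Pdgfra (30.5 and 32.6 FPKM) and Ly6a (1013 and 706 FPKM) were present in both libraries, and Lum was scarce in both, at 0.27 and 0.03 FPKM. In bulk RNA, fewer cells expressing a gene and less RNA per cell cannot be told apart.

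The stretches of promoter that hold ISRE-like letters are shown here for Bst2, the most abundant member, and for Rsad2 and Slfn8, which had the first and the fourth largest ratios with the added 1. Promoter sequences were taken from RefSeq on GRCm38.p6, which held 12 windows for 8 of the 10 genes. Mx1 and Mx2 had no entry. Each line gives the 250 bases before a transcription start on the gene's strand. Capitals mark matches, on either strand, to the ISRE core (GAAA, any 2 bases, GAAA) or to the GAS letters TTCNNNGAA. In Bst2 the capitals join a GAS match and a pair of ISRE core matches that overlap one another.

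Bst2, chr8:71537473-71537722, minus strand: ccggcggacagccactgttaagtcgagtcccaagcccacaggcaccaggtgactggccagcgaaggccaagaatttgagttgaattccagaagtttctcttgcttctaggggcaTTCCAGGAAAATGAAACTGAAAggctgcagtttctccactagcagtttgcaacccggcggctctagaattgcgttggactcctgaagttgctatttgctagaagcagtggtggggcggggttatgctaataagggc
Rsad2, chr12:26456453-26456702, minus strand: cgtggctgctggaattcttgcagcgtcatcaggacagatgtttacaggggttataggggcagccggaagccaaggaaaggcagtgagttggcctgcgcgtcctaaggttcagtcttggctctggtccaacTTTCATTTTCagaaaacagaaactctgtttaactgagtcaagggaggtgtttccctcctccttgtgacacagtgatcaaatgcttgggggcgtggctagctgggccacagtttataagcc
Slfn8, chr11:83020811-83021060, minus strand: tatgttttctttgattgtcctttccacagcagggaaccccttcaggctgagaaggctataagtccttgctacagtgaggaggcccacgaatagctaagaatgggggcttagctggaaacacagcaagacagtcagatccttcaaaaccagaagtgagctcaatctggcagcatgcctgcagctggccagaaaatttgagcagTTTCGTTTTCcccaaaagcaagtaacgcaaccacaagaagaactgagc

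The ISRE core was found in 6 of the 12 windows, belonging to 5 of the 8 genes. Over all 32851 RefSeq windows of the same length (250 bases before and 50 after each start), 3.44% held it. Slfn5 and Apobec3, the members with the smallest ratios, held a match as well, shown with 10 bases on each side.

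Slfn5, chr11:82951937-82951966, plus strand: ccttcaaagtGAAAAAGAAAaaaaaaaaag
Apobec3, chr15:79892258-79892287, plus strand: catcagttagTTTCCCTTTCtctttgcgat

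The Slfn5 match runs into a tract of adenines. The first base of the match lay 130 and 124 bases before the start in Bst2, 120 in Rsad2, 155 in Slfn5 and 140 in Apobec3. The match in Slfn8 lay 48 bases before the first of its RefSeq starts and fell in the windows of both starts. No ISRE core letters were found in the windows of Samhd1, Slfn2 and Adar. Only exact matches were sought, so stretches close to the core were not counted. A window of Adar holds gaaagtgaac, which differs from the core only in its last base. Letters of the GAS element were found in 3 of the 12 windows, belonging to Bst2, Samhd1 and Adar, and in 8.3% of all windows. The GAS match in Adar lay after the start, and those in Bst2 and Samhd1 before it. Matches of letters are descriptions of these windows and were not tested for binding.

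All 10 genes had a higher FPKM in the library labelled TGFBR3 OE than in the library labelled control. With the added 1, 9 of the 10 were at least 2-fold higher and none was 2-fold lower. Over all 26082 genes, 1.41% were at least 2-fold higher and 0.475% at least 2-fold lower. Over the 11213 genes averaging 1 FPKM or more, a level that all 10 reached, 3.14% were at least 2-fold higher. The median log2 ratio of the 10 genes was 1.79, beside 0.14 over those 11213 genes. For 8 of the 10 the counting interval lay wholly past 2-fold, and the share of all genes with such an interval was not computed. After centring, 8 were at least 2-fold higher, without Slfn5 (0.90) and Apobec3 (0.56), beside 2.39% of the 11213 genes. By the plain ratio of FPKM all 10 were at least 2-fold higher, beside 6.56% of the 11208 genes averaging 1 FPKM or more for which that ratio could be formed.

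**Figure D1:**
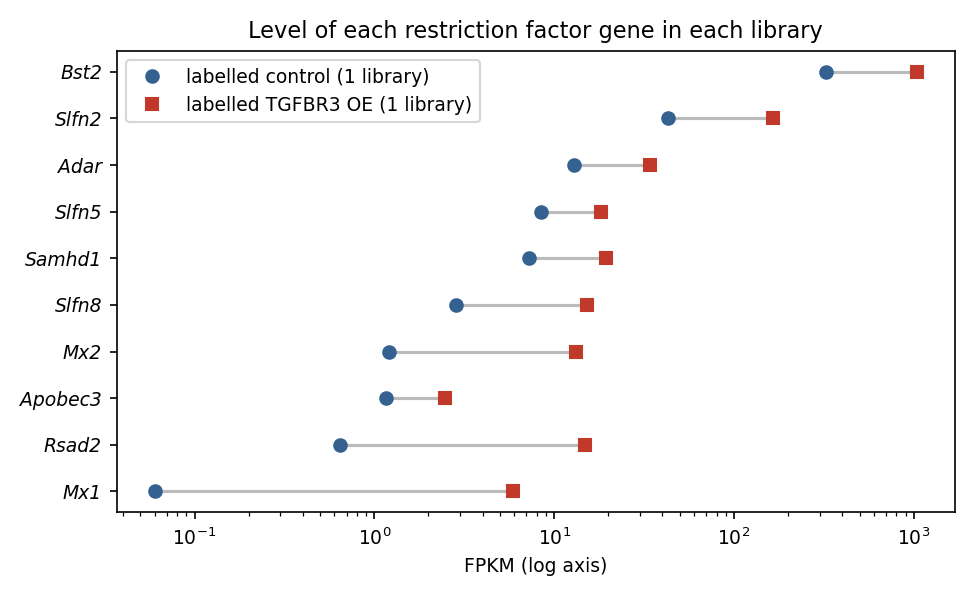
FPKM of the 10 restriction factor genes on a log axis, with 1 circle for the library labelled control and 1 square for the library labelled TGFBR3 OE, ordered by the level in the control library. Every square lies to the right of its circle, and the line between them is longest for Mx1 (0.06 to 5.91) and Rsad2 (0.64 to 14.9).

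The levels covered a wide range within each library. In the library labelled control, the highest member, Bst2, was 5436 times the lowest, Mx1. In the library labelled TGFBR3 OE, the highest, again Bst2, was 419 times the lowest, Apobec3. The median level of the 10 was 5.02 FPKM in the control library and 16.7 FPKM in the TGFBR3 OE library. The number of members at 10 FPKM or more was 3 in the control library and 8 in the other. Summed over the 10 genes the FPKM was 403 and 1326, which is 3.29-fold higher, and without Bst2 it was 77.2 and 288, which is 3.73-fold higher.

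In the library labelled control the order from high to low was Bst2, Slfn2, Adar, Slfn5, Samhd1, Slfn8, Mx2, Apobec3, Rsad2 and Mx1. The counting intervals of neighbors in this order were separate except for Mx2 (1.20 FPKM) and Apobec3 (1.16 FPKM). In the library labelled TGFBR3 OE, Bst2, Slfn2 and Adar kept the first places, Samhd1 stood above Slfn5, Rsad2 stood next to Slfn8, and Apobec3 was last. There only Slfn8 (15.2 FPKM) and Rsad2 (14.9 FPKM) had overlapping intervals. Rsad2 and Mx1 thus stood below Apobec3 in the control library and above it in the other. Comparisons between genes rest on the summed exon length, which is long for Apobec3 (9454 bases over 20 annotated transcripts) and short for Bst2 (903 bases).

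Without the added 1, the size of the difference could be ranked from the counts. Mx1 was 94.1-fold higher (95% CI 61.9 to 151), Rsad2 23.1-fold (95% CI 20.3 to 26.2), Mx2 10.95-fold (95% CI 9.87 to 12.2) and Slfn8 5.37-fold (95% CI 5.02 to 5.75). Below them stood Slfn2 (3.85-fold), Bst2 (3.18-fold), Samhd1 (2.70-fold), Adar (2.65-fold), Slfn5 (2.16-fold) and Apobec3 (2.14-fold). The intervals of neighbors in this order overlapped for Samhd1 and Adar and for Slfn5 and Apobec3, and were separate for the other neighbors. Mx1, Rsad2 and Mx2, the genes with the largest folds, were among the 4 lowest members in the control library. Apobec3, the remaining one of these 4, had the smallest fold.

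**Figure D2:**
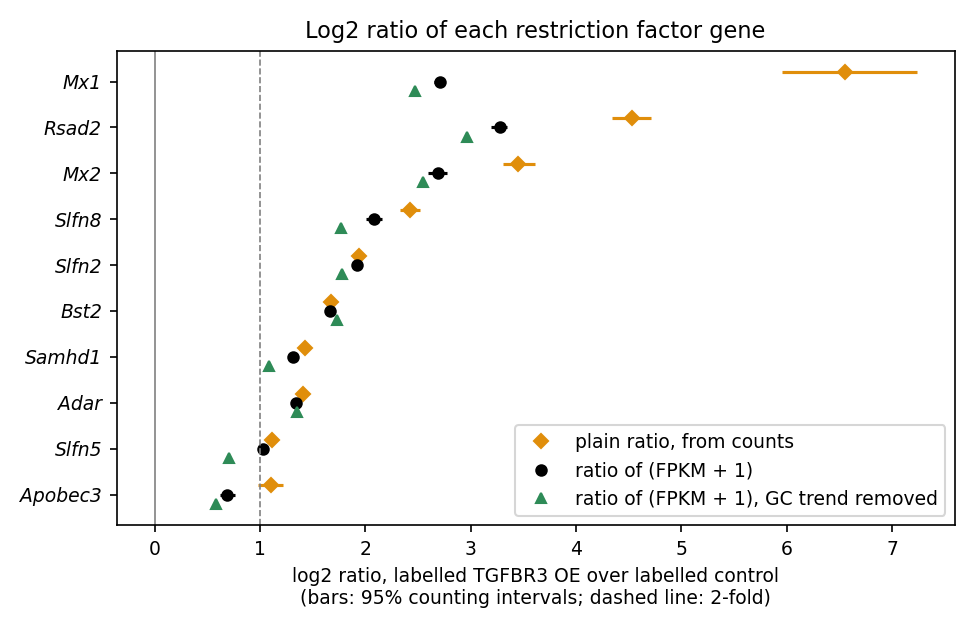
Log2 ratio of each gene, TGFBR3 OE over control, ordered by the plain ratio. Diamonds show the plain ratio from counts and circles the ratio of (FPKM + 1), both with 95% counting intervals. Triangles show the latter after removal of the GC trend, and the dashed line marks 2-fold. The added 1 lowers Mx1 from 6.56 to 2.70, and Slfn5 and Apobec3 are the members nearest to or left of the 2-fold line.

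Bst2 encodes tetherin (ENSMUSG00000046718, chromosome 8 of mm10, 71534255 to 71537456, minus strand), a membrane protein that spans from the lipid bilayer of the cell to that of the budding virion. Levels were 1038 FPKM in the library labelled TGFBR3 OE and 326 FPKM in the library labelled control, from 63589 and 27213 counts. This is a log2 ratio of 1.67 (95% CI 1.65 to 1.69), or 1.54 when centred. Bst2 stood 18th among all genes by FPKM in the TGFBR3 OE library and 134th in the control library. It made up 78.3% and 80.9% of the summed FPKM of the 10 genes. Its lead over Slfn2, the next member, was 6.29-fold and 7.61-fold. None of its 31-base words occurs in transcripts of other genes, and its level was high even in the control library.

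Bst2 is also used as a surface marker of plasmacytoid dendritic cells. Of 8 other markers of these cells, 6 were measured, and their summed FPKM was 0.27 in the library labelled TGFBR3 OE and 0.30 in the library labelled control. Summed over 11 macrophage markers the FPKM was 1.04 and 0.58, the highest being Csf1r (0.46 and 0.39). Ptprc, Adgre1, Tyrobp and Fcer1g were listed at 0 FPKM in both libraries, Ptprc with 0 and 4 counts. By log2 ratio 6 of the 11 were above 0 and 1 was below. Counts were few for Mrc1 (46 and 23), Laptm5 (35 and 19), C1qb (20 and 0) and C1qa (0 and 8), the marker below 0. Of 13 lymphocyte markers 3 were measured, with summed FPKM of 0.05 and 0.04. The 7 endothelial markers summed to 2.40 and 2.03 FPKM, and the 4 measured of 7 myogenic markers to 1.32 and 0.99 FPKM. The highest of the measured markers in these lists were Des (1.13 and 0.75 FPKM) and Tek (1.04 and 1.09 FPKM). The endothelial markers differed in both directions, with 4 of the 7 above 0 by log2 ratio and 2 below. Those above were Kdr (262 and 65 counts), Emcn (27 and 3), Pecam1 (24 and 8) and Cldn5 (23 and 0). Those below were Cdh5 (165 and 328 counts) and Tek. Whether such cells added to the levels of the restriction factor genes was not tested.

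Markers of the cultured cells themselves differed in both directions, with more of them below 0 than above. The 10 FAP markers summed to 2118 and 2510 FPKM, none was 2-fold higher and 2 were 2-fold lower, the matrix genes Dpt (log2 ratio −1.12) and Col3a1 (−1.05). Of the 10 FAP markers 3 were above 0, Ly6a (0.52), Lum (0.30) and Dcn (0.14), and 7 were below. Short of 2-fold lower were Col1a1 (−0.89), Gsn (−0.55) and Cd34 (−0.30), while Pdgfra (−0.09) and Pdgfrb (−0.08) were near equal. The 8 adipocyte markers summed to 57.8 and 95.3 FPKM, none was 2-fold higher and 2 were 2-fold lower, Cfd (−1.29) and Adipoq (−1.07). Pparg (0.29) and Lpl (0.16) were above 0 and the other 6 were below, with a median log2 ratio of −0.51 over the 8. The part of these differences in the levels of the restriction factor genes was not tested.

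Mx1 (ENSMUSG00000000386) and Mx2 (ENSMUSG00000023341) encode GTPases of the dynamin superfamily, acting in the nucleus against influenza viruses and in the cytoplasm against rhabdoviruses. C57BL/6 mice and many other inbred strains carry a defective Mx1 allele, so its RNA need not yield a working protein. Whether Mx2 RNA yields a working protein in these cells cannot be told from these data. Mx1 lies on chromosome 16 from 97447035 to 97462907, on the minus strand, and Mx2 from 97535308 to 97560900, on the plus strand. Mx1 had 1520 counts in the library labelled TGFBR3 OE and 22 in the library labelled control, which correspond to 5.91 and 0.06 FPKM. With the added 1 this is a log2 ratio of 2.70 (95% CI 2.65 to 2.74), and by the plain ratio of counts 6.56 (95% CI 5.95 to 7.23). Mx2 had 3233 and 402 counts, or 13.2 and 1.20 FPKM (log2 ratio 2.69, 95% CI 2.60 to 2.77). On the scale with the added 1 the intervals of both genes overlapped, while on the plain scale Mx1 stood apart. Mx2 exceeded Mx1 2.23-fold in the TGFBR3 OE library and 19.1-fold in the control library, by counts per exon length. The genes share sequence, with 8.12% of the 31-base words of Mx1 and 7.96% of those of Mx2 found in other transcripts, mostly each other's, so the division of reads between them is uncertain.

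Other GTPases of the dynamin superfamily were examined as relatives of the Mx proteins. None of these 10 genes was 2-fold changed, and their median log2 ratio was 0.08. Dnm2, the widely expressed dynamin of endocytosis, had 32.9 FPKM in each library. The largest ratio was that of Dnm1l (0.58), which divides mitochondria and peroxisomes.

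Rsad2 encodes viperin (ENSMUSG00000020641, chromosome 12, 26442746 to 26456452, minus strand), a radical SAM enzyme that converts CTP into a chain-terminating analog. Levels were 14.9 FPKM in the library labelled TGFBR3 OE and 0.64 FPKM in the library labelled control, from 4386 and 259 counts. The log2 ratio of 3.28 (95% CI 3.19 to 3.35) was the largest of the 10 with the added 1, and it ranked 25th of 11213 genes. Removing the GC trend gave 2.96. Cmpk2, the nucleotide kinase gene next to it, had 4559 and 468 counts, or 16.1 and 1.21 FPKM (log2 ratio 2.96, 95% CI 2.87 to 3.03). The cytosolic iron-sulfur assembly factors, which supply clusters to enzymes such as viperin, were examined as well. Of 8 measured genes none was 2-fold changed, the median was 0.30, and the largest ratio was that of Ciao1 (0.59), from 20.98 and 13.6 FPKM.

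Samhd1 (ENSMUSG00000027639, chromosome 2, 157097533 to 157135265, minus strand) had an FPKM of 19.4 in the library labelled TGFBR3 OE and 7.20 in the library labelled control. These came from 12054 and 6090 counts and correspond to a log2 ratio of 1.32 (95% CI 1.28 to 1.36). Removing the trend over GC content gave 1.09, and removing that over exon length gave 1.06. The dNTP metabolism genes were examined as the suppliers of the nucleotides that Samhd1 degrades. None of these 16 genes was 2-fold changed, 9 were above 0 and 7 below, and the median was 0.07. The ribonucleotide reductase subunits Rrm1 (8.69 and 9.03 FPKM) and Rrm2 (42.5 and 40.6 FPKM) were at similar levels in both libraries. The largest ratios were those of Ctps (0.58), which makes CTP, and Nme2 (−0.49), a nucleoside diphosphate kinase.

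The schlafen genes lie side by side on chromosome 11. Slfn2 (ENSMUSG00000072620, 83065112 to 83070678, plus strand) encodes a short schlafen known for keeping T cells quiescent. Levels were 165 FPKM in the library labelled TGFBR3 OE and 42.9 FPKM in the library labelled control, from 18627 and 6593 counts (log2 ratio 1.92, 95% CI 1.88 to 1.96). Slfn8 (ENSMUSG00000035208, 83002158 to 83020810, minus strand), a long schlafen with a helicase-like domain, had 15.2 and 2.83 FPKM from 4228 and 1072 counts (log2 ratio 2.08, 95% CI 2.01 to 2.16). Slfn5 (ENSMUSG00000054404, 82951349 to 82964840, plus strand), another long schlafen, had 18.2 and 8.41 FPKM from 7792 and 4917 counts (log2 ratio 1.03, 95% CI 0.98 to 1.07). The Slfn5 interval crosses 2-fold, and its value was short of 2-fold when centred (0.90), after removal of the GC trend (0.71), after removal of the exon length trend (0.83) and with TMM (0.88) or DESeq2 (0.85) scaling of CPM. The folds thus separated within the family, from 2.16-fold for Slfn5 to 5.37-fold for Slfn8. Slfn2 was 9.09 times Slfn5 in the TGFBR3 OE library and 5.10 times Slfn5 in the control library.

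Of the 6 other schlafen genes measured, 2 were at least 2-fold higher. Slfn9 had 3.34 and 0.98 FPKM (log2 ratio 1.13, 95% CI 1.04 to 1.21). Slfn10-ps, a pseudogene by its symbol, had 2.31 and 0.52 FPKM (log2 ratio 1.12, 95% CI 1.01 to 1.23). After centring Slfn10-ps was just short of 2-fold, at 0.997. Slfn3 was low, with 122 and 53 counts, or 0.53 and 0.17 FPKM. Its log2 ratio was 0.39 with the added 1 and 1.64 by the plain ratio (95% CI 1.17 to 2.14). Slfn1, Slfn4 and Slfn14 had from 0 to 8 counts in either library. Slfn8 shares 26.8% of its 31-base words with other transcripts, 19.1% with Slfn9 alone, so that the split of reads between these genes is uncertain. For Slfn2 the shared part was 10.3% and for Slfn5 4.92%.

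**Figure D3:**
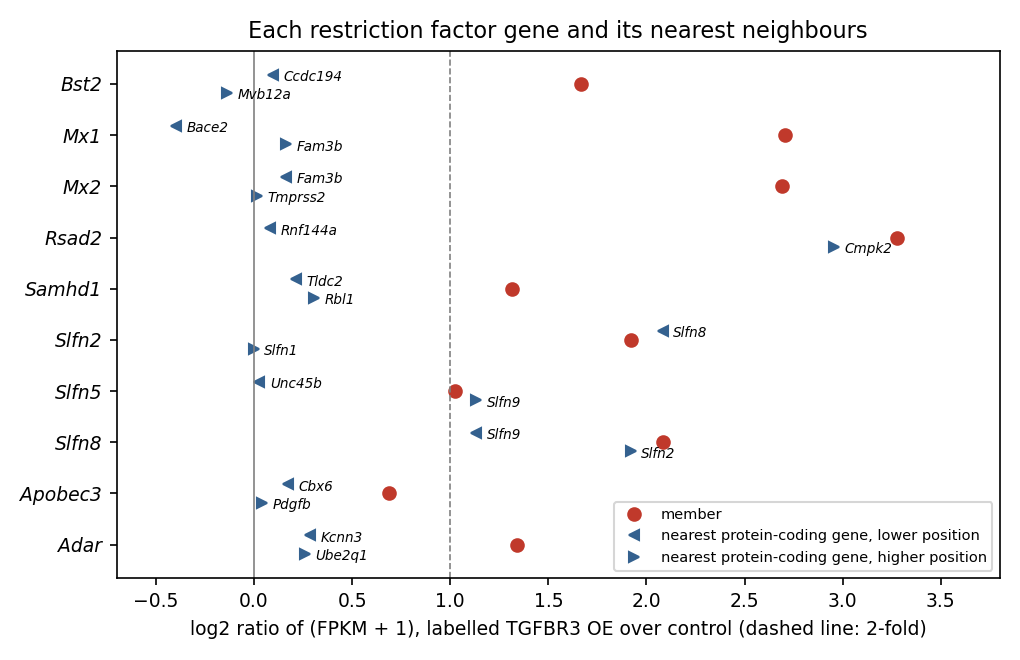
Log2 ratio of (FPKM + 1) of each restriction factor gene (circles) and of the nearest protein-coding gene at lower (left-pointing triangles) and higher (right-pointing triangles) coordinates, with the dashed line at 2-fold. The measured neighbors lie between −0.40 and 0.30, except for Cmpk2 beside Rsad2 and Slfn9, Slfn8 and Slfn2 within the schlafen cluster.

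Of 16 distinct measured neighbors outside the set, 2 were at least 2-fold higher and none was 2-fold lower. These 2 were Cmpk2 and Slfn9, described above. Bace2 beside Mx1 was lower, at 0.83 and 1.41 FPKM (log2 ratio −0.40), and Mvb12a beside Bst2 was at 15.1 and 16.7 FPKM (log2 ratio −0.14). Fam3b, which lies between Mx1 and Mx2, had 16 counts in the library labelled TGFBR3 OE and 0 in the library labelled control. Rbl1 beside Samhd1 (0.30) and Ube2q1 beside Adar (0.26) were near the median of expressed genes. Several neighbors were too low for the added 1 to let a 2-fold ratio show. Pdgfb beside Apobec3 had 13 and 5 counts, Ccdc194 beside Bst2 9 and 0, and Tldc2 beside Samhd1 7 and 0.

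Apobec3 (ENSMUSG00000009585, chromosome 15, 79891659 to 79915906, plus strand) encodes a cytidine deaminase that is packaged into retroviral particles. Levels were 2.48 FPKM in the library labelled TGFBR3 OE and 1.16 FPKM in the library labelled control, from 1599 and 1016 counts. With the added 1 the log2 ratio was 0.69 (95% CI 0.62 to 0.76), the only value of the 10 short of 2-fold, and by the plain ratio of FPKM it was 1.10. Removing the exon length trend gave 0.43. The gene overlaps Cbx7 on the other strand and D730005E14Rik on its own strand, and 6.35% of its 31-base words are shared with the latter. Whether reads in such overlaps were kept is not given in the sources used here.

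Adar (ENSMUSG00000027951, chromosome 3, 89715022 to 89753446, plus strand) encodes ADAR1, which turns adenosine into inosine in double-stranded RNA and thereby keeps cellular RNA from being sensed as viral. An interferon-inducible promoter gives the long p150 form and a constitutive one the p110 form. Levels were 34.1 FPKM in the library labelled TGFBR3 OE and 12.9 FPKM in the library labelled control, from 18766 and 9644 counts (log2 ratio 1.34, 95% CI 1.31 to 1.37). Removing the exon length trend gave 1.07. Counts per gene hold both forms together, so the forms cannot be told apart here.

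Other nucleic acid deaminases were mostly low or near equal. Of 9 measured, 1 was at least 2-fold higher and none was 2-fold lower, and the median was 0.03. Apobec1, which edits the mRNA of apolipoprotein B, had 12.4 and 3.81 FPKM, from 2284 and 954 counts (log2 ratio 1.48, 95% CI 1.39 to 1.57). Its level was above that of Apobec3 in both libraries, by FPKM. Adarb1, the second catalytic ADAR, had 0.42 and 0.55 FPKM, and Adarb2 had 1 count and 0.

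**Figure D4:**
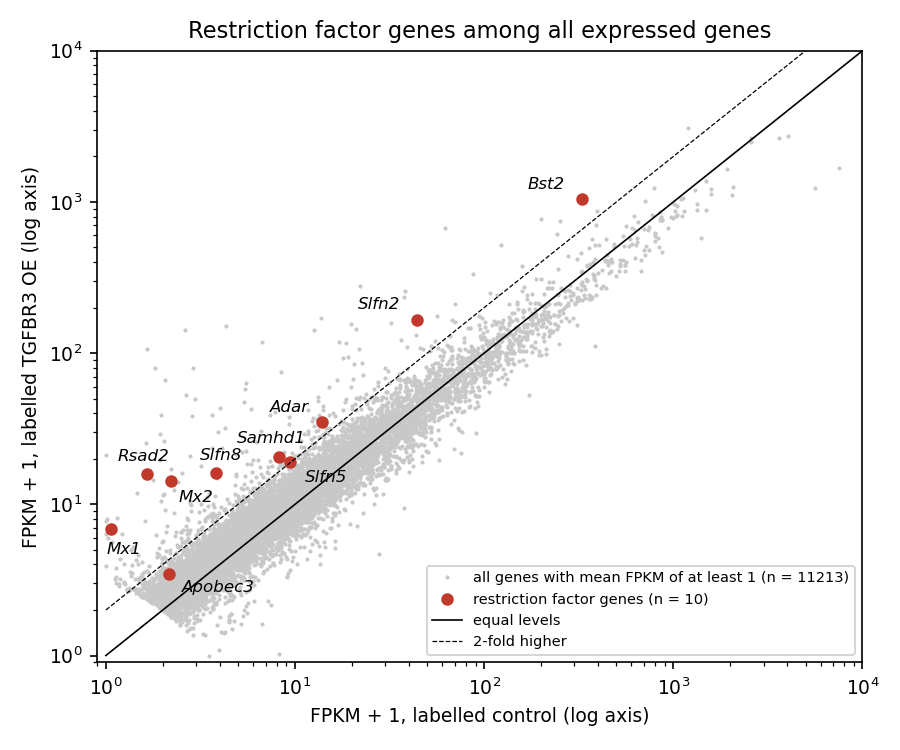
FPKM + 1 of the 11213 genes averaging 1 FPKM or more (gray), library labelled control on the horizontal and library labelled TGFBR3 OE on the vertical log axis, with the 10 restriction factor genes in color. All of them lie above the line of equal levels, 9 on or above the dashed 2-fold line, and Apobec3 lies below it.

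The 10 genes ranked from 25th (Rsad2) to 987th (Apobec3) by log2 ratio, of the 11213 genes averaging 1 FPKM or more. Mx1 ranked 43rd, Mx2 45th, Slfn8 71st, Slfn2 87th and Bst2 110th. Adar, Samhd1 and Slfn5 followed at 173rd, 178th and 332nd. At least 4-fold higher were 4 of the 10 (Rsad2, Mx1, Mx2 and Slfn8), beside 0.687% of those genes. Slfn8 was short of 4-fold when centred (1.96), after removal of the GC trend (1.77) and after removal of the exon length trend (1.97). In gain of FPKM the order was different, since Bst2 alone accounted for 77.1% and Slfn2 for 13.2% of the summed difference of the 10 genes.

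**Figure D5:**
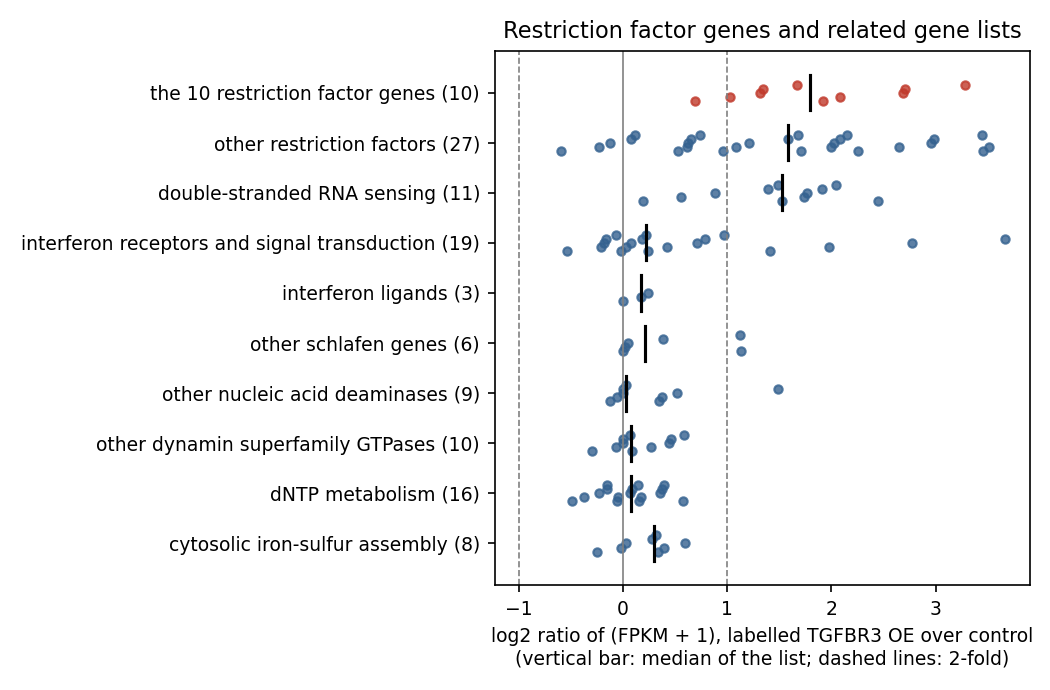
Log2 ratio of (FPKM + 1) of each measured gene in the set and in 9 related lists, with the number measured in brackets, 1 point per gene, the median of each list as a vertical bar and 2-fold as dashed lines. The set has a median of 1.79, other restriction factors 1.58 and double-stranded RNA sensing 1.53, and the medians of the remaining lists lie between 0.03 and 0.30.

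The interferon pathway was examined through lists compiled from general knowledge. In these lists, the genes named below 2-fold, the interferon receptors and Ifitm3 were chosen after their values were seen. Of 27 other restriction factors, 16 were at least 2-fold higher and none was 2-fold lower, with a median log2 ratio of 1.58. After centring 15 remained, without Mov10 (0.95). The largest ratios were those of Ifit2 (3.52), Oasl1 (3.45) and Ifit3 (3.45). This list also held genes that were not higher. Ifitm2 was at 278 and 422 FPKM (log2 ratio −0.60), Ifitm1 at 37 and 64 counts, and Marchf8 at 7.05 and 8.48 FPKM (log2 ratio −0.24). Serinc5, which lowers the infectivity of retroviral particles, had a log2 ratio of 0.08. Ifitm3, which blocks fusion of viruses in endosomes, exceeded Bst2 in level in both libraries, at 1243 and 790 FPKM, with a log2 ratio of 0.65.

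The sensors of double-stranded RNA, whose activity Adar limits, had 8 of 11 genes at least 2-fold higher and none lower, with a median log2 ratio of 1.53. The largest ratios were those of Oas3 (2.44) and Zbp1 (2.05), and Ifih1, which encodes the sensor MDA5, had 10.9 and 2.49 FPKM and a log2 ratio of 1.76. Eif2ak2 (0.89) and Mavs (0.19) were among those short of 2-fold.

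Upstream of these genes, 4 of 19 receptor and signaling genes were at least 2-fold higher and none was 2-fold lower, with a median of 0.22. Among them were Irf7 (3.67), Usp18 (2.77) and Stat2 (1.41), which interferons are known to induce as well. Irf9 was at 26.8 and 13.2 FPKM, a log2 ratio of 0.97. The receptor genes were near equal, with 12.0 and 11.7 FPKM for Ifnar1, 26.3 and 22.5 for Ifnar2, 24.4 and 23.1 for Ifngr1 and 19.4 and 22.2 for Ifngr2. Tyk2 was at 3.64 and 3.85 FPKM. Irf3, the factor that starts interferon production, was at 5.71 and 8.76 FPKM (log2 ratio −0.54).

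Of 21 interferon genes 3 were measured, and their RNA was scarce. Ifnb1 had 9 counts in the library labelled TGFBR3 OE and 3 in the library labelled control, a plain log2 ratio of 2.09 with a wide counting interval (95% CI 0.03 to 4.55). Ifnz had 56 and 43 counts, or 0.56 and 0.32 FPKM, a plain log2 ratio of 0.81 (95% CI 0.23 to 1.43). With the added 1 these ratios were 0.17 and 0.24. Ifna4 had 0 in both libraries, which allows up to 3 counts. Both measured differences thus pointed to the library labelled TGFBR3 OE and rest on few counts. Over the genes averaging 1 FPKM or more the median plain log2 ratio was 0.17. That value lies within the Ifnb1 interval and just below the Ifnz interval. The other 18 genes were not analysed here.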

How the data were processed

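Poly(A) RNA of 2 FAP cultures was sequenced with paired reads of 150 nt, 1 library per group. The study's methods name STAR on mm10 and FeatureCounts, whereas the submitters' processing notes name cutadapt 1.9, HISAT2 2.2.1, StringTie 2.1.6, DESeq2 and edgeR. The library kit named in the study's methods is a stranded one. The annotation and the strand setting used in counting are not given in the sources used here. The authors deposited raw counts per gene and, from them, FPKM values rounded to 2 decimals. For genes with an FPKM of at least 5, 98.7% (TGFBR3 OE) and 98.8% (control) of deposited FPKM values lay within 1% of the count divided by summed exon length and a single library total.

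The comparison was the log2 ratio of (FPKM + 1), without a test, since count models need replicates. Exact Clopper-Pearson intervals (95%) were computed from the counts and exact Poisson intervals for levels. They cover counting error only, and wider error is unknown. The threshold was 2-fold and the floor 3 counts. Coordinates, exon lengths and GC content came from GENCODE release M21 (mm10), and promoters from RefSeq (GRCm38.p6). Trends over GC content or exon length were removed by subtracting the median in 20 bins. Named genes were the 10 members, Tgfbr3, up to 5 genes of each of 9 lists and 7 marker lists by absolute ratio plus partners and paralogs, and the nearest protein-coding neighbors. Genes with the most similar pattern were not sought, because 2 libraries give a single ratio. Some genes of the lists are not reported here by name. The members and lists were chosen with earlier results of these data known. Calculations were tested on simulated data. Python 3.11.15, scipy 1.17.1, edgeR and DESeq2 (scaling factors only) were used.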

Additional observations from a re-analysis of the deposited data

How the results depend on the processing

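No paired analysis was possible because each group has 1 library. Of 90 single-gene values (10 genes, 9 alternative scales), none changed sign and 79 were at least 2-fold higher. The 11 short of it all belonged to Slfn5, from 0.71 to 1.15 with 4 of 9 past 2-fold, and to Apobec3, from 0.43 to 1.10 with 3 of 9 past it. At 4-fold, 4 of the 10 genes were past the threshold (without Slfn8 when centred, 1.96, or with the GC, 1.77, or exon length trend, 1.97, removed), and none was 2-fold lower on any scale. The median of the 10 genes was 1.67 when centred, 1.87 with FPKM rescaled to a common sum, 1.58 with CPM and TMM factors, 1.55 with CPM and DESeq2 size factors and 1.75 with the GC trend removed.

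Counts over all genes moved more. From 369 higher and 124 lower genes they went to 2061 and 798 with a pseudocount of 0.1, 4933 and 2750 with 0.01, 2926 and 1080 with the plain ratio, and 1069 and 246 with a common sum. At 1.5-fold they were 1685 and 608, and at 4-fold 77 and 6. The lower genes were 195 when centred, 372 with TMM factors and 409 with DESeq2 size factors. The share of higher genes among those past 2-fold was 74.8%, and it was 58.5% when centred, 51.2% with TMM factors, 47.4% with DESeq2 size factors and 63.4% with the GC trend removed. The removal of the exon length trend was chosen after seeing the data. Depth limits Mx1 most, with 22 counts in the library labelled control, and Ifnb1, with 9 and 3 counts.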
